A study of Mus musculus with 10 samples.

Results

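Wnt4, Wnt5a, Wnt5b and Wnt11 are the WNT ligands best known for signalling without β-catenin. They were taken by an exact match of their symbols in a deposited expression table, and all 4 were found among the 20006 genes it lists. The table holds messenger RNA read counts, scaled for sequencing depth, from 10 mouse embryos, each taken whole at embryonic day 7.5, the stage at which gastrulation lays down the mesoderm. Of these, 5 embryos were labelled WT and 5 were labelled Axin1;Axin2 mutant, with the short name DKO. Axin1 and Axin2 are the scaffold proteins of the complex that destroys β-catenin, and the study asked how their loss affects WNT signalling and mesoderm. The sources used here do not give the litters, the strain, the alleles or how they were inactivated, so the p-values below measure the spread between these embryos. Each library began with 1.9 to 2 ng of total RNA, copied by SMART-Seq v4 with 12 cycles of amplification, a kit that keeps no strand and carries no molecular identifiers.

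In the canonical branch, a WNT protein binds a Frizzled receptor with an LRP co-receptor, and β-catenin then builds up and acts with TCF/LEF factors in the nucleus. In the non-canonical branches, a WNT protein binds a Frizzled with a co-receptor such as ROR2, RYK or PTK7, and the signal runs through Dishevelled to planar cell polarity proteins or to calcium. WNT5A drives elongation of the body axis and limb outgrowth in the mouse through ROR1 and ROR2, and WNT5B is its closest relative. WNT11 is known from fish and frog embryos for the cell movements that lengthen the axis, and in the mouse for heart and kidney development. WNT4 is required in the mouse for kidney tubules and the female reproductive tract, and can act through either branch depending on the tissue.

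All 4 proteins share the WNT family's lipid site, a serine to which the enzyme Porcupine attaches a fatty acid that the ligand needs for secretion and for receptor binding. The coding stretch around that serine is shown for each ligand, and the capitals mark the serine codon. Sequences were read from the GENCODE M21 transcripts of GRCm38.
Wnt4: tgtcacggggtgTCGggctcctgcgag
Wnt5a: tgtcatggagtgTCTggctcctgtagc
Wnt5b: tgtcacggagtcTCCgggtcctgcagc
Wnt11: tgccatggggtgTCTggctcctgctcc
The serine is residue 212 of 351 in WNT4, 244 of 380 in WNT5A, 249 of 385 in WNT5B and 215 of 354 in WNT11. Wnt5a and Wnt5b shared 77.4% of aligned coding bases and 78.6% of aligned residues, whereas every other pair shared 56.6 to 62.8% of bases and 40.5 to 50% of residues. The longest identical run between the coding sequences of Wnt5a and Wnt5b was 29 bases, and in the other pairs it was 14 to 18 bases.

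Depth was 20744547 to 28505209 reads per embryo, so 3 reads correspond to 2.51 to 3.41 scaled counts. Axin1 stood at 3314 to 3843 scaled counts in the WT embryos, at 820 to 1319 in mutants 1, 2, 3 and 5, and at 2336 in the library labelled mutant 4. Axin2, itself a target of β-catenin, stood at 395 to 485 in WT and 349 to 603 in mutant embryos, and its level cannot show how the allele was made. The library labelled mutant 4 also stood apart on the second principal component, at -91.3 with every other embryo between -9.69 and 29.3. Summed markers of the maternal decidua were at 650 to 1069 scaled counts in WT, at 1172, 1321 and 1821 in mutants 1, 2 and 5, and at 9209 and 7780 in mutants 3 and 4, with none of the 7 markers at 0 in all embryos. Results are therefore also given for mutants 1, 2 and 5 against WT.

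All 4 ligands rose in the mutant embryos, Wnt4 the most, and no mutant embryo overlapped the WT range for any of them. Mean scaled counts were 4.18 times the WT mean for Wnt4, 2.73 times for Wnt11, 2.40 times for Wnt5b and 2.39 times for Wnt5a. Genes called higher (adjusted p below 0.05 by limma) made up 11.4% of the 15429 tested, those called in either direction 25.1%, and those with all mutants above all WT embryos 7.14%. The median log2 fold change over all genes was 0.01. In whole embryos, more cells of a type that makes a ligand and more of its RNA per cell cannot be told apart.

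**Figure D1:**
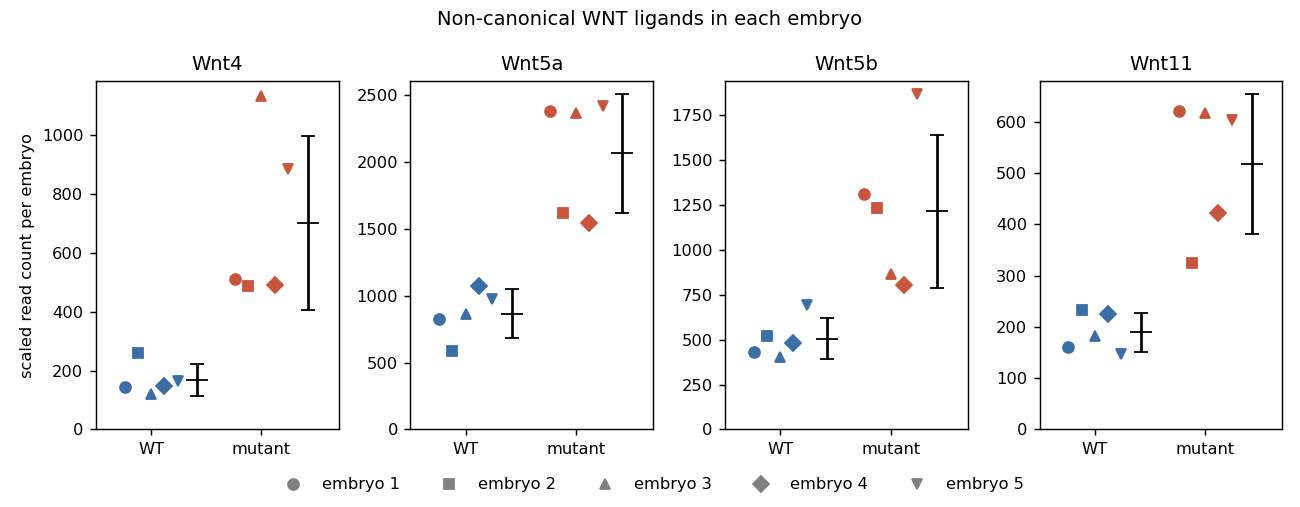
Scaled read counts (y axis, from 0) of the 4 ligands in each WT (blue) and mutant (red) embryo, with marker shape giving the embryo number and the black bar the mean and SD of 5 embryos. Every mutant embryo lies above every WT embryo in all 4 panels.

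Wnt5a, the ligand of the ROR receptors (ENSMUSG00000021994.14), lies on the plus strand of chromosome 14 at 28504750 to 28527448 of GRCm38. The WT embryos 1 to 5 held 823, 589.8, 866, 1069 and 978 scaled counts, and mutants 1 to 5 held 2379, 1615, 2362, 1542 and 2421. WT 2 was the lowest embryo and mutants 2 and 4 were the lowest of the mutants, and the groups did not overlap. The mean went from 865 ± 182 to 2064 ± 444 scaled counts (SD, n = 5 each), a change of 1.25 on the log2 scale (SE 0.18, limma adjusted p = 0.000661). Wnt5a shares 358 exon bases with the antisense gene Gm2670 on the opposite strand, and without strand the reads there cannot be told apart. Gm2670 itself was listed at 9.19 to 22.7 scaled counts in WT and 23.5 to 40.6 in mutants.

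Wnt5b, the relative of Wnt5a (ENSMUSG00000030170.14), lies on the minus strand of chromosome 6 at 119432531 to 119544347. Its scaled counts were 431, 521, 401, 484 and 693 in WT 1 to 5, and 1308, 1231, 863, 807 and 1865 in mutants 1 to 5. WT 5 was the highest of its group, mutant 5 the highest of all, and mutants 3 and 4 the lowest mutants, still above WT 5. The mean went from 506 ± 114 to 1215 ± 425 (SD, n = 5 each), a change of 1.22 on the log2 scale (SE 0.22, limma adjusted p = 0.00249). With mutants 1, 2 and 5 alone the log2 fold change was 1.54 (adjusted p = 0.000326). Wnt5b overlaps no other annotated exon.

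Wnt11, the ligand of convergence movements in fish (ENSMUSG00000015957.11), lies on the plus strand of chromosome 7 at 98835112 to 98855195. Its scaled counts were 161, 232, 182, 224 and 146 in WT 1 to 5, and 620.0, 324, 617, 421 and 604 in mutants 1 to 5. Mutants 1, 3 and 5 were close together and high, and mutant 2 was the lowest mutant, above the highest WT embryo. The mean went from 189 ± 38.0 to 517 ± 137 (SD, n = 5 each), a change of 1.42 on the log2 scale (SE 0.21, limma adjusted p = 0.000805). Its WT embryos varied the least of the 4 ligands, with a coefficient of variation of 20.1%. Wnt11 shares 364 exon bases with Gm8398, a processed pseudogene on the opposite strand.

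Wnt4, the kidney and gonad ligand (ENSMUSG00000036856.4), lies on the plus strand of chromosome 4 at 137277489 to 137299726. Its scaled counts were 143, 261, 122, 149 and 165 in WT 1 to 5, and 512, 488, 1134, 490.2 and 886 in mutants 1 to 5. WT 2 was the highest of the WT embryos, while mutants 3 and 5 stood above 3 mutants that lay close together. The mean went from 168 ± 54.2 to 702 ± 294 (SD, n = 5 each), a change of 2.02 on the log2 scale (SE 0.27, limma adjusted p = 0.00044). Its coefficient of variation was 32.3% in WT and 41.9% in mutants, the widest of the 4 ligands in both groups. The fewest reads behind any value of the 4 ligands were 107, for Wnt4 in WT 3.

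An exact two-sided permutation test over the 252 ways to assign 5 of 10 embryos gave p = 0.00794 for each ligand, the smallest that this design allows. Without mutants 3 and 4, the log2 fold changes of Wnt4, Wnt5a and Wnt11 were 1.90, 1.31 and 1.41, with limma adjusted p of 0.00066, 0.000987 and 0.00236. The embryos did not rank alike for all ligands. The lowest mutant was the library labelled mutant 4 for Wnt5a and Wnt5b, and mutant 2 for Wnt4 and Wnt11. The highest was mutant 5 for Wnt5a and Wnt5b, mutant 3 for Wnt4 and mutant 1 for Wnt11.

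Ratios within an embryo show whether 2 ligands changed by different amounts, because the depth scaling cancels in them. Wnt5a and Wnt5b kept nearly the same ratio: their mean log2 ratio was 0.77 ± 0.42 in WT and 0.80 ± 0.45 in mutants (SD, n = 5 each). That difference of 0.03 gave an exact permutation p of 0.921, which does not show that the 2 changed alike. Over embryos the ratio ran from 0.18 in WT 2 to 1.45 in mutant 3, a wider span than the group difference.

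The mean log2 ratio of Wnt4 to Wnt5b was -1.61 ± 0.39 in WT and -0.82 ± 0.72 in mutants, and that of Wnt4 to Wnt5a was -2.38 ± 0.69 and -1.62 ± 0.42 (SD, n = 5 each). The differences of 0.80 and 0.76, with exact permutation p of 0.0397 and 0.0714, did not pass after adjustment over the 6 pairs (adjusted p = 0.143 for both). Mutant 3 was the 1 embryo with more Wnt4 than Wnt5b reads, at a log2 ratio of 0.39. The outcome depended on which embryos were kept. Without WT 2, whose Wnt4 was high and Wnt5a low, the differences were 0.95 for Wnt4 to Wnt5b and 1.07 for Wnt4 to Wnt5a. Each then had an exact permutation adjusted p of 0.0476. With mutants 1, 2 and 5 alone the differences were 0.36 and 0.59, in the same order (exact permutation, adjusted p = 0.429 for both). For Wnt4 to Wnt11 the difference was 0.59 (exact permutation p = 0.0714, adjusted 0.143), with 4 of 5 mutants above every WT embryo. The log2 ratios to Wnt11 differed by -0.17 for Wnt5a and by -0.20 for Wnt5b (exact permutation, adjusted p = 0.657 for both).

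**Figure D2:**
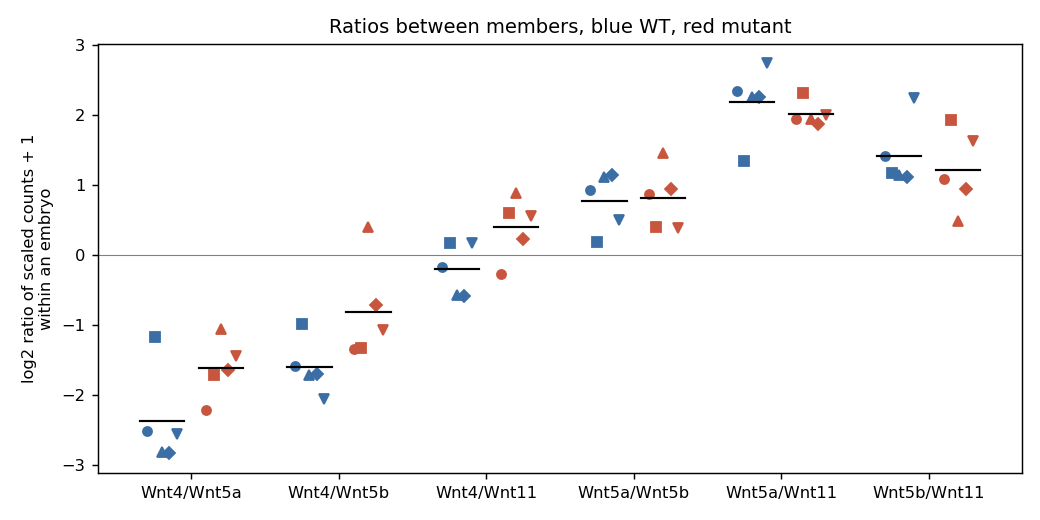
Log2 ratios of scaled counts + 1 between each pair of ligands within an embryo (y axis), for WT (blue) and mutant (red) embryos, with marker shape for the embryo number and a black line at the mean of 5. The red means lie above the blue ones by 0.59 to 0.80 for the 3 ratios that have Wnt4 on top, with overlapping embryos in each.

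Levels of different ligands were compared as scaled counts per kilobase of annotated exon. The lengths count every annotated exon, 7823 bases for Wnt5a and 2654 for Wnt5b, and the transcripts used in these embryos were not measured. Before division by length, Wnt5a held more scaled counts than Wnt5b in every embryo. The order, ranks and shares below therefore rest on these lengths. In WT embryos the order was Wnt5b at 191 ± 43.1, Wnt5a at 111 ± 23.2, Wnt11 at 45.7 ± 9.18 and Wnt4 at 40.0 ± 12.9 scaled counts per kilobase (SD, n = 5). Wnt5b stood above Wnt5a, and Wnt5a above Wnt11, in all 5 embryos without overlap. Wnt11 and Wnt4 did not differ beyond their spread, with Wnt11 the higher in 3 of 5 embryos. In mutants the levels per kilobase were 458 ± 160 for Wnt5b, 264 ± 56.8 for Wnt5a, 167 ± 70.2 for Wnt4 and 125 ± 33.0 for Wnt11 (SD, n = 5). Wnt4 now stood above Wnt11 in 4 of 5 embryos, and neighbouring ligands overlapped at each step of this order.

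Against the other 13 WNT ligands of the table, the 4 moved from the middle of the order to near its top. By mean level per kilobase among the 17 ligands, Wnt5b went from rank 5 to 3, Wnt5a from 6 to 4, Wnt11 from 9 to 6 and Wnt4 from 10 to 5. The 4 together held 17.4, 16.4, 23.7, 19.2 and 21.9% of all ligand reads per kilobase in WT 1 to 5. In mutants 1 to 5 they held 48.1, 43.9, 43.6, 33.9 and 53.0%. The shares did not overlap between the groups, and mutant 4 held the smallest share of the mutants. The mean share was 19.7 ± 3.05% in WT and 44.5 ± 7.02% in mutants (SD, n = 5 each), a difference of 24.8 percentage points given as a description.

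The summed level of the 4 went from 387 ± 52.0 to 1014 ± 245 scaled counts per kilobase, and its groups did not overlap. That of the other 13 ligands was 1610 ± 333 in WT and 1246 ± 127 in mutants (SD, n = 5 each), with groups that overlapped: WT 3, at 1076, lay below every mutant. Wnt6 and Wnt7b, the highest ligands in both groups, held 24.6 and 24.3% of the ligand reads per kilobase in WT and 25.6 and 21.1% in mutants. Wnt3a and Wnt8a, canonical ligands of the primitive streak, held 10.3 and 11.1% in WT and 2.07 and 2.01% in mutants. The Wnt8a mean of the mutants was carried by the library labelled mutant 4, which held 8.90%, inside the WT range of 5.24 to 17.0%, while mutants 1, 2, 3 and 5 held 0.0487 to 0.652%. For Wnt3a mutant 4 held 5.11% and the others 0.440 to 2.69%, against 5.44 to 16.3% in WT.

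**Figure D3:**
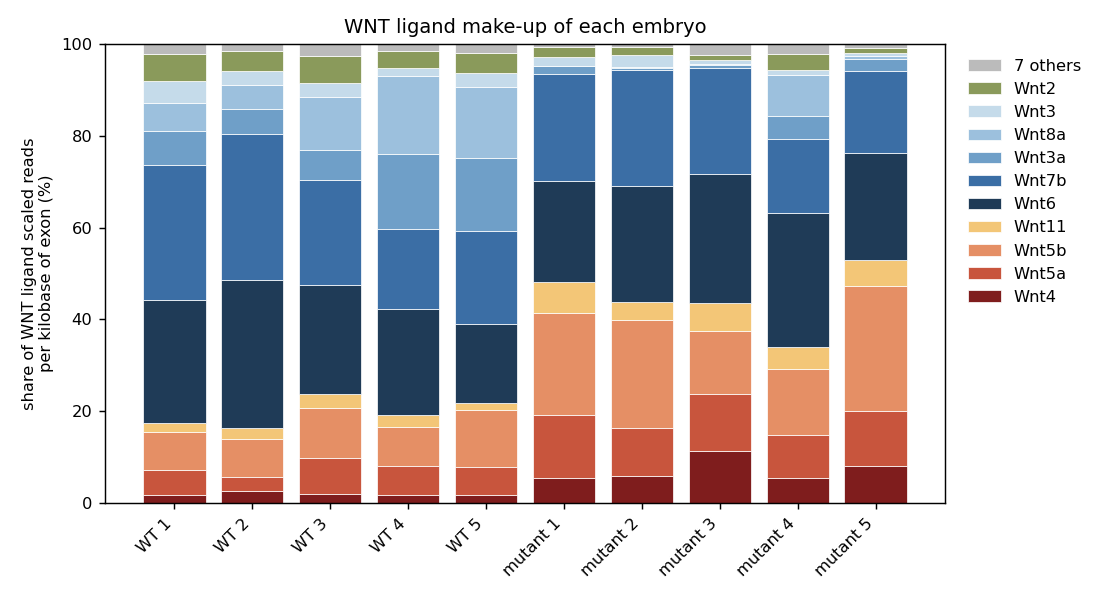
Share of all WNT ligand scaled reads per kilobase of exon (y axis, percent) held by each ligand in each of the 10 embryos, with the 4 non-canonical ligands in reds and yellow at the foot of the bars. Their stack reaches 16.4 to 23.7% in WT and 33.9 to 53.0% in mutants.

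The genes whose profiles over the 10 embryos were most like each ligand were found by the root mean square difference of log2 values centred on each gene's mean, among 11410 genes with a mean of at least 50 scaled counts. For Wnt5b the closest was Fzd10, a Frizzled receptor gene, at 0.18 log2 units, followed by Ackr3, a chemokine receptor gene, at 0.21. For Wnt4 it was Pitx1, a homeobox gene of the hindlimb and allantois, at 0.25, followed by Abhd2 at 0.33. After these came Rnf43, a membrane ubiquitin ligase gene that clears Frizzled receptors, at 0.33 and Tceanc2 at 0.35. Nrp2, which encodes a co-receptor of semaphorins and VEGF, was first for Wnt5a at 0.20 and second for Wnt11 at 0.23. Next for Wnt5a came Mmd at 0.21 and Sox13, an HMG-box gene, at 0.22. Wnt11 was closest to Atf3, a stress-responsive transcription factor gene, at 0.22, and had Hbegf, an EGF-family growth factor gene, at 0.23. Also among the 4 closest were Shf and Cox4i2 for Wnt5b, Snapc1 for Wnt5a and Lxn for Wnt11.

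Among the ligands themselves, Wnt5a and Wnt11 were the most alike, at 0.35 log2 units, and Wnt4 and Wnt5b the least, at 0.65. Each ligand had 4 other genes closer to it than any of the other 3 ligands. These distances are descriptions over 10 embryos, and both members of each pair differ between the genotypes, so much of a profile is that shared step.

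**Figure D4:**
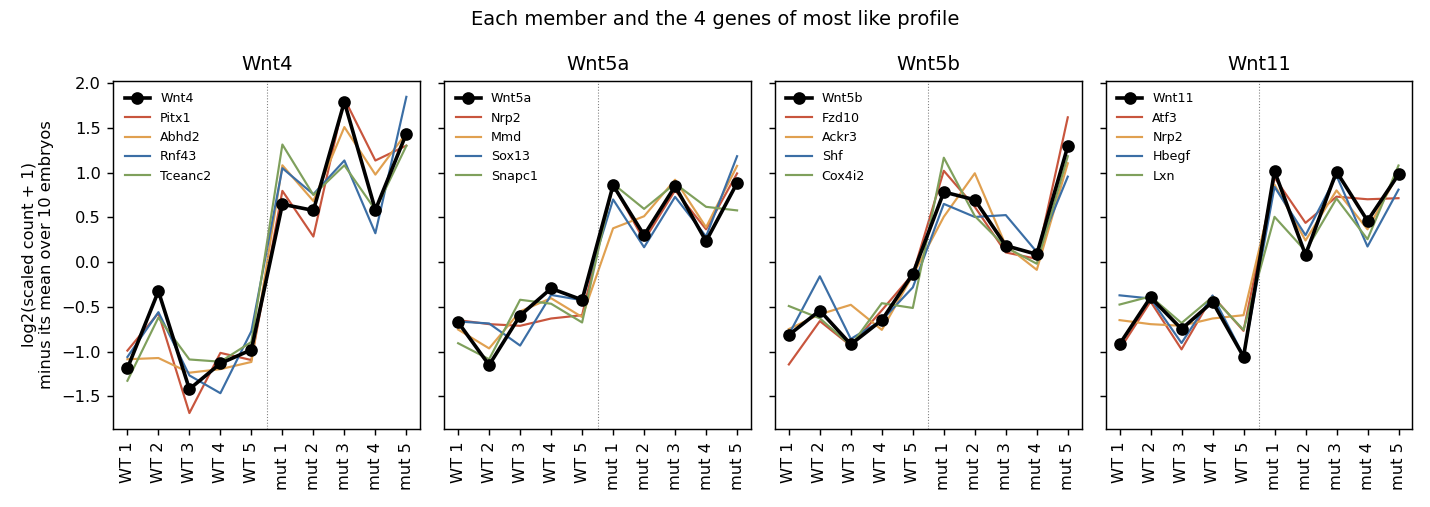
Centred log2(scaled count + 1) values (y axis) of each ligand (black) and of the 4 genes of most like profile (colours) in the 10 embryos, with a dotted line between WT and mutant. The lines step up at the dotted line in every panel, and Fzd10 follows Wnt5b to its high in mutant 5 and Pitx1 follows Wnt4 to its high in mutant 3.

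Markers of several tissues of this stage moved too, and their part in the ligands' change was not tested. Summed markers of the allantois and extra-embryonic mesoderm were at 11386 to 15580 scaled counts in WT and 14690 to 29061 in mutants. Of the 7, 3 were called higher (Tbx4, Pitx1 and Bmp4) and none lower. Hand1, Ahnak, Vcam1 and Postn did not pass, with log2 fold changes of -0.09, -0.08, -2.10 and 1.86. Hand1 made up most of the WT sum, at 8772 to 11578 scaled counts, and stood at 20275 in mutant 4. Summed primitive streak markers were at 5536 to 7551 in WT and at 9404 to 15463 in mutants 1, 2, 3 and 5. In mutant 4 the sum was 4085. The list split, with 3 of 6 called higher and 2 lower. Mixl1, Evx1 and Fgf8 rose, from means of 768, 1429 and 438 scaled counts to 4101, 3663 and 861, with groups that overlapped. T and Fgf4 fell without overlap, from means of 2392.5 and 147 to 787 and 27.3. Eomes did not pass, with a log2 fold change of 0.19. All 5 node markers fell, from a sum of 1250–1728 to one of 69.3–369 scaled counts, and 3 of 6 early cardiac markers fell. Of the blood and endothelium markers 1 of 6 was called higher, and none of the 6 trophoblast or 5 visceral endoderm markers was called. Over all genes 11.4% were called higher and 13.8% lower, so 1 of 6 does not stand out. The library labelled mutant 4 stood apart on these sums: its trophoblast markers were at 23824 scaled counts against 3583 to 8743 in the other 9 embryos, and its blood markers at 10120 against 2598 to 4886. Of the 7 decidua markers 3 rose (Prl8a2, Prl3c1 and Cyp11a1). Pgr, Hand2, Dcn and Alpl did not pass, with log2 fold changes of -0.16, 0.88, 0.36 and 0.31. Mutants 3 and 4, the highest for that sum, differed in make-up. Pgr, Dcn, Cyp11a1 and Alpl were at 142, 140, 865 and 394 scaled counts in mutant 3. In mutant 4 they were at 28.3, 15.2, 2678 and 1655.5. Alpl alone held 452 to 590 scaled counts in WT. The ligands' log2 fold changes without mutants 3 and 4 are given above. In mutants 1, 2 and 5 the decidua sum was still above the WT range.

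Around the 4 ligands, the listed WNT genes, which include canonical ligands and secreted antagonists, were called more often lower than higher. Of 73 tested genes in 7 lists, 5 rose and 26 fell, so that 31 of 73 were called against 25.1% of all genes. Over all genes 11.4% were called higher and 13.8% lower, against 5 and 26 of these 73. The lists had a median log2 fold change of -0.38 against 0.01. Among the other 11 WNT ligands tested, none rose and 5 fell, with a median of -1.08. Wnt2b, a canonical ligand, went from 46.5–123 scaled counts in the WT embryos to 1.89–20.2 in the mutants (log2 fold change -3.27, SE 0.56, limma adjusted p = 0.00168). Some of its mutant values are under 3 reads, and the log2 fold change was -2.60 with a pseudocount of 5. Wnt2 went from 180–259 to 66.1–161 (-1.19, SE 0.25, adjusted p = 0.00522). Wnt3a fell by 2.51 (adjusted p = 0.0139), with groups that overlapped. Wnt8a fell by 4.17 (adjusted p = 0.010), but not by edgeR or DESeq2 on the recovered reads, where its log2 fold change was -2.35 and -2.34 (adjusted p = 0.117 and 0.110). Wnt3, which the mouse needs to form a primitive streak, is named here after its value was seen and had a log2 fold change of -1.08 (adjusted p = 0.0479). Its groups overlapped, at 121 to 286 scaled counts in WT and 42.7 to 159 in mutants, and its call was lost in 10 of 20 alternatives (adjusted p up to 0.161). Those included edgeR, mutants 1, 2 and 5 alone, and leaving out WT 1, WT 2, WT 5 or mutant 3, 4 or 5.

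Genes that lipidate, release or carry WNT proteins split, with 2 of 7 rising, 2 falling and a median of 0.33. Among all genes 11.4% were called higher and 13.8% lower. Notum, which encodes an extracellular enzyme that removes the lipid from WNT proteins, went from 206–447 scaled counts in the WT embryos to 1122–6125 in the mutants, a change of 3.34 on the log2 scale (SE 0.37, limma adjusted p = 0.000117). Wls, the carrier that takes lipidated WNT proteins to the cell surface, rose by 0.73 (adjusted p = 0.0231), a call lost without WT 1, WT 5 or mutant 1, 2 or 3 (adjusted p = 0.0506 to 0.0597), with a replicate block (0.0521) and with no intensity trend (0.0502). Porcn, the gene of Porcupine itself, fell by 0.89 (adjusted p = 0.00745) and Cthrc1, whose secreted product favours WNT binding to ROR2, fell by 1.33 (adjusted p = 0.00544).

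Ror1 and Ror2, which encode the receptors of WNT5A, fell while the ligand rose. Ror1 held 443 to 781 scaled counts in WT, 35.1 to 57.4 in mutants 1, 2, 3 and 5 and 279 in mutant 4, a change of -3.15 on the log2 scale (SE 0.46, limma adjusted p = 0.000689). Ror2 held 1128 to 1691 in WT and 438 to 1023 in mutants, a change of -1.29 on the log2 scale (SE 0.23, adjusted p = 0.00205). Neither gene overlapped between the groups, which held for 17.1% of all genes tested, in either direction. The other 3 co-receptors of the list, with a median over all 5 of -0.39, did not pass: Ryk had a log2 fold change of 0.11 (adjusted p = 0.442), Ptk7 one of -0.39 (adjusted p = 0.0994) and Mcam one of -0.15 (adjusted p = 0.772). Without mutant 5, Ptk7 passed at -0.50 (adjusted p = 0.0394).

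Of the 10 Frizzled receptor genes 4 fell and 1 rose, with a median of -0.57, beside 13.8% lower and 11.4% higher over all genes. Fzd2 went from 1582–2625 scaled counts in the WT embryos to 263–1147 in the mutants (log2 fold change -2.28, SE 0.35, limma adjusted p = 0.000867). Fzd7, the other Frizzled most often tied to WNT5A and WNT11 signalling, went from 2025–2674 to 659–1403 (-1.40, SE 0.18, adjusted p = 0.000301). Fzd8 fell by 2.15 (adjusted p = 0.000209), and Fzd6, named after its value was seen, fell by 0.59 (adjusted p = 0.0237), a call lost without WT 2, WT 4 or mutant 1, 2 or 5 (adjusted p up to 0.0583). Fzd10, the gene most like Wnt5b above, rose from 354–713 to 802–2406 scaled counts (1.36, SE 0.29, adjusted p = 0.00549). Among 6 secreted WNT-binding antagonists, Sfrp1, Sfrp2 and Frzb fell, with log2 fold changes of -3.76, -1.55 and -1.37 (adjusted p = 0.00357, 0.00123 and 0.00704), and the list's median was -0.50. Wif1 rose at a low level, from 0–10.0 to 9.50–52.6 scaled counts (2.08, adjusted p = 0.042). That call was lost in 12 of 19 alternatives, including edgeR (adjusted p = 0.0529) and mutants 1, 2 and 5 alone (1.58, adjusted p = 0.151), and the log2 fold change was 1.33 with a pseudocount of 5.

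Inside the cell, no planar polarity or Dishevelled gene rose, and 7 of 14 fell, with a median of -0.54. The shares over all genes were 11.4% higher and 13.8% lower. Vangl2, a core polarity membrane protein gene that WNT5A signalling acts on, went from 1374–1845 scaled counts in the WT embryos to 791–1240 in the mutants (log2 fold change -0.58, SE 0.13, limma adjusted p = 0.00701), while its paralog Vangl1 had 0.12 (adjusted p = 0.369). Celsr2 and Celsr3, genes of large polarity cadherins, fell, with log2 fold changes of -3.08 and -1.85 (adjusted p = 0.000796 and 0.00414). Ankrd6, the mouse relative of the fly polarity gene diego, fell by 1.49 (adjusted p = 0.00159) and Dvl2, a Dishevelled gene, fell by 0.56 (adjusted p = 0.0067). The remaining 2 that fell, both named after their values were seen, were Celsr1 at -0.64 and Prickle1 at -0.86 (adjusted p = 0.0313 and 0.0115). The Celsr1 call was lost in 7 of 20 alternatives (adjusted p up to 0.108), those without WT 2, WT 5 or mutant 2, 3, 4 or 5, and mutants 1, 2 and 5 alone.

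The calcium branch had 1 of 20 higher, 3 lower and a median of 0.10. Its 4 calls are 20% of the list, below the 25.1% of all genes, so the branch as a whole does not stand out. Camk2b, a calcium-calmodulin kinase gene, went from 41.0–89.2 scaled counts to 0.944–9.10 (log2 fold change -4.23, SE 0.50, limma adjusted p = 0.000175). Its values in 4 mutants are at or under 3 reads, and the log2 fold change was -3.08 with a pseudocount of 5. Camk2a fell by 1.48 (adjusted p = 0.0155). Prkcb, a protein kinase C gene, rose by 0.73 (adjusted p = 0.0205), a call lost without WT 5 (adjusted p = 0.0536) or mutant 3 (adjusted p = 0.051). Plcb3, a phospholipase gene, fell by 0.39 (adjusted p = 0.0311), a call lost without any 1 of WT 2, WT 5 and mutants 1, 2, 3 and 5 (adjusted p = 0.0628 to 0.0818), with a replicate block (0.0681) and with no intensity trend (0.0563).

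With mutants 1, 2 and 5 alone, 6 of the 73 pathway genes were higher and 26 lower. The count of higher genes was 2 without WT 5 or mutant 3, and 3 without mutant 1 or mutant 2. Exons of Wnt7b, Dvl2, Notum, Sfrp2, Plcb3, Fzd6, Vangl1 and Mcam overlap a gene on the opposite strand, so their counts are less certain. The same holds for Axin2 and for the markers Pitx1, Bmp4, Evx1, Vcam1 and Hand2.

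**Figure D5:**
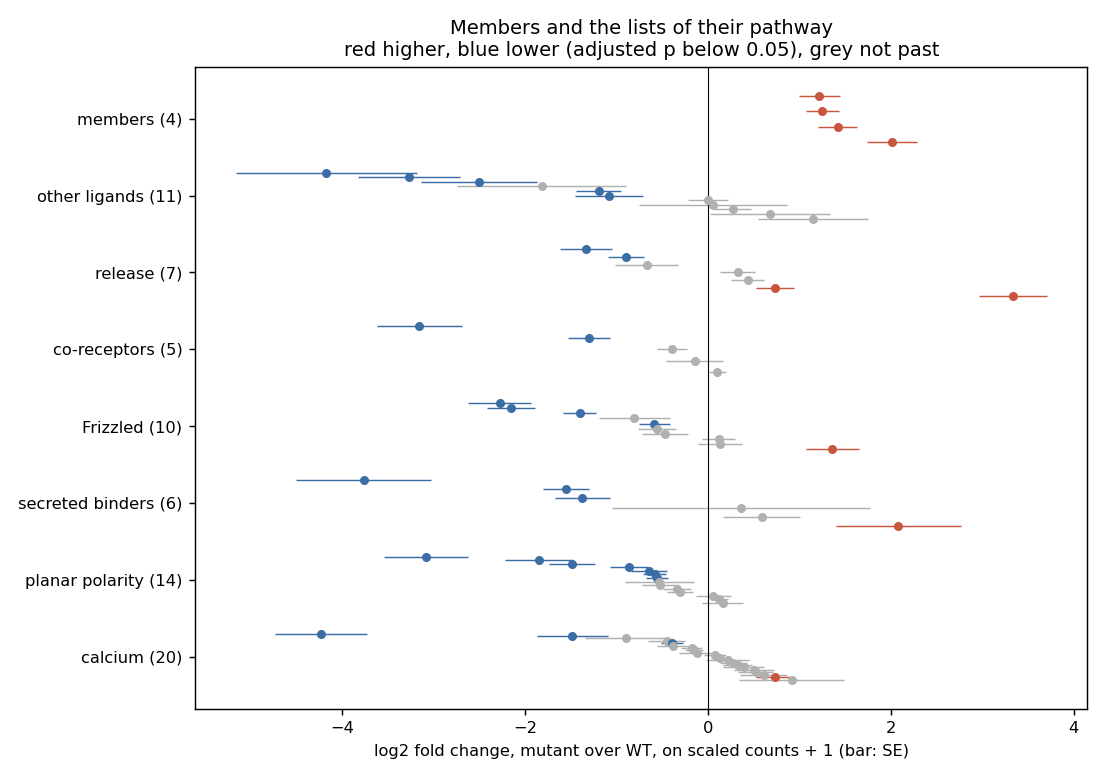
Log2 fold change of mutant over WT on scaled counts + 1 (x axis, bars give the SE) for every tested gene of the 4 ligands and of the 7 pathway lists, with the number tested in brackets, red for higher, blue for lower and grey for not past the threshold. The 4 ligands lie between 1.22 and 2.02, while 26 of the 73 other genes are blue and 5 are red.

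The sequence just before the annotated starts is shown for the ligands whose window held a match to a motif of a factor of this tissue. The 250 bases before each RefSeq start of GRCm38.p6 were searched on both strands for CTTTGAT (TCF/LEF), GGTGTGA (a T-box motif) and TTTATG (a caudal-type motif). These motifs were chosen with the sequences in view. Wnt11 start 1 (chr7:98834862-98835111, plus strand, 70.8% GC) held a TCF/LEF match in reverse orientation, in capitals, whose first base lies 51 bases before the start. Wnt5b start 3 (chr6:119449387-119449636, minus strand, 55.6% GC) held a TCF/LEF match 71 bases and a caudal-type match 222 bases before the start, both in capitals.
Wnt11 start 1: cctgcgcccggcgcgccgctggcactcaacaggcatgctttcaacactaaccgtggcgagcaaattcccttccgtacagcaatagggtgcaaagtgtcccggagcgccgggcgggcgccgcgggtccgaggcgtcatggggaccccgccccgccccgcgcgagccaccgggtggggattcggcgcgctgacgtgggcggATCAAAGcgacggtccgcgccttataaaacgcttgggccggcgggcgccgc
Wnt5b start 3: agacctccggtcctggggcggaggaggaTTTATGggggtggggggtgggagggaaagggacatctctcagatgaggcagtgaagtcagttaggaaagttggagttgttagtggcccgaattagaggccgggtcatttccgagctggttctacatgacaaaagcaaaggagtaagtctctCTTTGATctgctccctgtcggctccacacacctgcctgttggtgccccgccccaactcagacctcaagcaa
The TCF/LEF letters occurred in 3.21%, the T-box letters in 3.33% and the caudal-type letters in 10.8% of all 32851 promoter windows of the same length. The remaining windows, 1 for Wnt4, 1 for Wnt11 and 2 for Wnt5b, held none of the 3 motifs. In the Wnt4 window 146 of the 250 bases lie inside exons annotated by GENCODE, so only the rest is upstream of that annotation. The window of Wnt5a was not analysed here. These matches are letters in a window, and which start was used in these embryos was not measured.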

How the data were processed

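RNA was measured in 5 WT and 5 Axin1;Axin2 mutant whole embryos, grouped by the genotype label. The deposited table holds a signal, read counts per gene divided by the authors' DESeq size factor of each embryo. Per the submitters' processing notes, reads were handled with cutadapt 1.6, STAR 2.5.0a, HTSeq 0.5.3 and DESeq (no version given) on mm10. Every value of the 20006 genes came back to a whole read within 0.01 reads (largest deviation 5.1e-10), with size factors of 0.881 to 1.2. No value column was left unused.

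Genes with a mean of at least 10 scaled counts (15429) were tested with limma 3.58.1 in R 4.3.3 on log2(scaled count + 1), with an intensity trend and Benjamini-Hochberg adjustment at 0.05. A fold change on this scale understates that of low genes. Alternatives were edgeR 4.0.16 and DESeq2 1.42.0 on the recovered reads, TMM scaling, pseudocounts of 0.5 and 5, a minimum mean of 50, no filter, no trend, a replicate block and leaving out each embryo. Mutants 1, 2 and 5 against WT was added after seeing the data. Amplified reads without molecular identifiers are not independent molecules.

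The ligands and gene lists were chosen with earlier results of these data known. From each pathway list the text names up to 4 called genes of smallest adjusted p and every tested Ror, Ryk, Ptk7 and Vangl gene. For each ligand it names up to 4 genes of most like profile, leaving out genes named Gm or Rik. Exon lengths and overlaps came from GENCODE M21, promoter sequences from RefSeq. The replicate numbers did not pair the embryos. One of the pathway lists first drawn up is not reported here.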

Additional observations from a re-analysis of the deposited data

Results flagged for a closer look

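In 86 groups of 5 values, an embryo was picked out where its gap to the nearest embryo was more than 0.71 of the group's range. For independent, normally distributed values chance picks out about 1 in 20 such groups. Scaled counts need not be normal and the groups share the same 10 embryos, so that rate is only a guide. In all 13 were picked out, 10 of them in the library labelled mutant 4.

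For the ligands, the log2 ratio of Wnt4 to Wnt5a in WT 2 was -1.17, against -2.84 to -2.52 in the other WT embryos. Without WT 2 the test of that ratio passed. The log2 ratio of Wnt5b to Wnt11 in WT 5 was 2.23, against 1.11 to 1.41 in the rest of its group.

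In mutant 4, 10 pathway genes stood above the other mutants. Among ligands and receptors these were Wnt8a at 329 scaled counts (others 1.89 to 29.4), Ror1 at 279 (35.1 to 57.4), Fzd7 at 1403 (659 to 852) and Fzd2 at 1147 (263 to 357). Among antagonists they were Sfrp2 at 338 (124 to 174), Sfrp1 at 1180.4 (29.1 to 321) and Wif1 at 52.6 (9.50 to 16.8). Inside the cell they were Ankrd6 at 325 (119.9 to 140.6), Camk2b at 9.10 (0.944 to 2.85) and Plcb3 at 2023 (1373 to 1457). Wnt8a and Plcb3 in mutant 4 lay inside the WT range, at 208 to 634 and 1825 to 2239 scaled counts. Dvl2 in mutant 2 was at 1805, below the 2065 to 2167 of the other mutants. None of the 4 ligands themselves had an embryo picked out.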

How the results depend on the processing

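The rise of all 4 ligands passed the threshold in each of the 20 alternatives. Their log2 fold changes ran from 1.82 to 2.19 for Wnt4, 1.12 to 1.35 for Wnt5a, 1.05 to 1.54 for Wnt5b and 1.34 to 1.58 for Wnt11, with adjusted p of at most 0.00321, 0.00301, 0.00816 and 0.0066. Leaving out 1 embryo at a time gave 2505 to 4535 genes called (1071 to 2061 higher, 1434 to 2474 lower). The lowest counts, 2505 in all and 1071 higher, came without WT 5. In the pathway lists the same runs gave 2 to 7 genes higher and 23 to 27 lower, and a ligand share difference of 22.7 to 27.4 percentage points. The ratios of Wnt4 to Wnt5a and to Wnt5b reached adjusted p = 0.0476 without WT 2, at 1.07 and 0.95, and over all embryos left out they ran from 0.62 to 1.07 and from 0.49 to 0.95. Mutants 1, 2 and 5 against WT gave a share difference of 28.6 points. In that setting the ratio differences were 0.59 for Wnt4 to Wnt5a and 0.36 for Wnt4 to Wnt5b.

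Embryos with the same number deviated together with correlations of -0.0787 to 0.0787, and 3 of 10 correlated best with their own number, so the numbers were not taken as pairs. With a replicate block, 3253 genes were called (1436 higher, 1817 lower) and the ligands' log2 fold changes stayed at 2.02, 1.25, 1.22 and 1.42, with adjusted p of 0.00321, 0.00174, 0.00147 and 0.0066. Under the block the calls of Wls, Wif1 and Plcb3 were lost (adjusted p = 0.0521, 0.0714 and 0.0681), and no other call among the named genes changed. For 53 named genes, 1002 of 1056 alternative values kept direction and side of the threshold, 53 no longer passed, 1 newly passed and none reversed. Scaling choices moved the median of all genes by less than 0.1 on the log2 scale. At least 107 reads stood behind every ligand value, while Wif1, Camk2b and Wnt2b rest on few reads in 1 of the groups.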
